A study of Arabidopsis thaliana with 18 samples.

Results

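The comparison described here is between polysomal RNA of leaves of the Arabidopsis thaliana double mutant upf1-3 pad4-1 and polysomal RNA of leaves of pad4-1. Its members are the 6 polysomal libraries of the 18 libraries in the series, 3 per genotype, read across every locus of the table. Of 34212 loci, 20895 had enough reads to be tested. Both genotypes carry the pad4-1 allele in the Columbia-0 (Col-0) background, so that pad4-1 is called the control and upf1-3 pad4-1 the mutant, and no line with a working PAD4 gene is part of the comparison. Plants of both genotypes spent 10 days on plates with sucrose, were moved to soil, and were harvested at 3 weeks of age under 16 h of light and 8 h of dark at 22 °C. The labels call the 3 libraries of a group biological replicates, and they give neither the number of plants in each nor the hour of harvest. Matching monosomal and total RNA libraries exist for both genotypes and are used here only beside the polysomal values.

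Nonsense-mediated decay (NMD) is a surveillance pathway that is coupled to translation. When a ribosome stops at a codon that the cell reads as premature, because an exon junction lies well downstream of it, because the 3′ untranslated region is long, or because the stop ends a short upstream reading frame, the RNA helicase UPF1 acts with UPF2, UPF3 and other factors to start the destruction of the transcript. Plant NMD keeps many alternatively spliced transcripts of splicing factors, transcripts with upstream reading frames, some pseudogene and non-coding transcripts, and several mRNAs of immune receptors low. PAD4 is a lipase-like protein that signals with EDS1 downstream of immune receptors, and Arabidopsis NMD mutants are known for a constitutive immune response that loss of PAD4 eases. Polysomal RNA is RNA carried by several ribosomes at once, and monosomal RNA is RNA carried by a lone ribosome, so a level in polysomal RNA depends both on how much of a transcript there is and on how much of it is being translated.

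Levels are given as CPM, counts scaled to a common library size with TMM (a correction for differences in library makeup), in the order of replicates 1, 2 and 3. Total estimated counts were 41932955, 29775965 and 23631313 in the control polysomal libraries and 51877919, 33498339 and 27259506 in the mutant ones. Chloroplast-encoded loci took 74.1%, 45.5% and 39.2% of the control counts and 33.6%, 36.1% and 53.3% of the mutant counts, and control replicate 1 had the lowest scaling factor, 0.478. Over 12 marker genes of flowers and seeds, 9 of them tested, the summed level was 3.7, 37.3 and 51.6 CPM in the control and 9.2, 8.9 and 2.1 CPM in the mutant. In bulk leaf RNA, fewer cells of a type and less RNA per cell cannot be told apart. Control replicate 1 stood apart from the other control libraries in both its chloroplast share and its floral markers, and some counts below are also given without it.

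The UPF1 gene itself (AT5G47010, listed as LBA1) stood at 49.7, 49.6 and 46.4 CPM in control polysomes and at 26.4, 32.7 and 65.6 CPM in mutant polysomes. The mutant libraries lay on both sides of the control ones, and the log2 fold change of -0.23 ± 0.30 (SE) was not called (edgeR adjusted p = 0.705). It had a positive sign without the TMM scaling (0.09) and without mutant replicate 1 (0.01). In total RNA UPF1 fell, from 61.7, 76.1 and 69.9 CPM to 39.3, 24.8 and 36 CPM (edgeR adjusted p = 0.0159). A gene-level count does not say which stretch of the gene its reads come from, so it is a weak check of an insertion allele such as upf1-3. PAD4, mutated in both genotypes, stood at 0.948, 0.0718 and 1.23 CPM in control libraries and at 5.03, 6.76 and 4.03 CPM in the mutant. Its groups did not overlap, but the difference was not called (log2 fold change 2.82 ± 1.07 SE, edgeR adjusted p = 0.0949).

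Of the 20895 loci tested, 2796 were called, which is 13.4%. A call here is an adjusted p under 0.05 in edgeR's quasi-likelihood test. In the mutant 1742 loci (8.34%) rose and 1054 (5.04%) fell, beside a median log2 fold change of 0.03 over all tested loci. These shares are the background for each polysomal count of called genes below. For counts in total RNA, where 20302 loci were tested, the background is 15.3% higher and 12.5% lower. In monosomal RNA it is 8.07% and 4.6%. The polysomal risers moved further than the polysomal fallers. Their median log2 fold change was 2.03, and 885 of them rose at least 4-fold and 403 at least 8-fold. The median of the fallers was -1.40, with 186 lower by at least 4-fold and 68 by at least 8-fold. The 3 mutant libraries lay wholly above or wholly below the 3 control libraries at 38% of all tested loci. Leaving out a polysomal library at a time gave 1572 calls without control replicate 2, 1432 without control replicate 3, 1418 without mutant replicate 3, 2508 without control replicate 1, and 2725 and 2091 without mutant replicates 1 and 2. When libraries were scaled by their totals alone, without TMM, the split turned to 2251 loci called higher and 102 called lower, with the median of all loci at 0.47, so statements about lower levels below are relative to the bulk of loci that TMM centres.

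**Figure D1:**
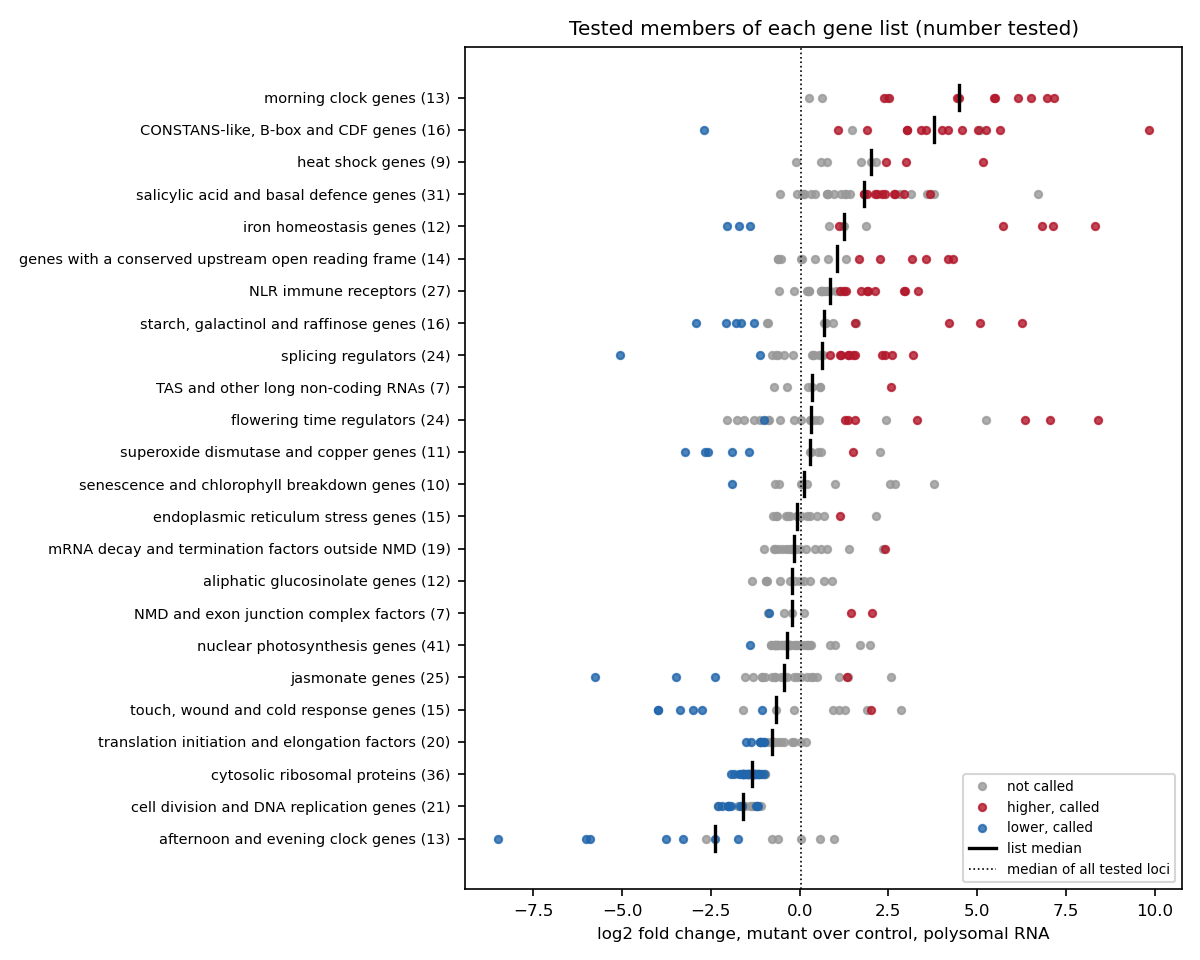
Log2 fold change of mutant over control in polysomal RNA (x axis) for each tested member of 24 gene lists, with red points called higher, blue points called lower, grey points not called, black bars the list medians and the dotted line the median of all loci (0.03). Morning clock genes (median 4.47) lie at the upper end and evening clock genes (median -2.39) at the lower end; the outermost points of the B-box, flowering, iron and evening lists are fitted values of genes with no counts in 1 group.

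The circadian clock held the steepest differences. The plant clock is a loop in which the morning MYB factors CCA1 and LHY repress genes that peak later in the day, and pseudo-response regulators (PRR9, PRR7, PRR5 and TOC1, in that order through the day) in turn repress CCA1 and LHY. CCA1 stood at 3.09, 0.718 and 1.56 CPM in control libraries and at 156, 79.2 and 143 CPM in the mutant. For LHY the levels were 4.69, 1.94 and 1.31 CPM against 541, 204 and 384 CPM. All mutant libraries were far above all control libraries at both genes. The fitted differences were 71.1-fold for CCA1 (log2 6.15 ± 0.59 SE, edgeR adjusted p = 1.7e-05) and 143-fold for LHY (log2 7.16 ± 0.78 SE, edgeR adjusted p = 5.32e-05).

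Other morning genes moved the same way. RVE8, a CCA1 relative that activates evening genes, stood at 0.549, 0.108 and 0.615 CPM in control libraries and at 42.2, 27.2 and 44.2 CPM in mutant libraries (log2 fold change 6.51 ± 0.62 SE). PRR9, the earliest of the pseudo-response regulators, stood at 0.998, 0.108 and 1.19 CPM against 33.6, 90.4 and 161 CPM (log2 fold change 6.98 ± 0.75 SE). RVE1, which links the clock to auxin, went from 2.5, 0.897 and 1.48 CPM to 144, 25.4 and 49.6 CPM (log2 fold change 5.51 ± 0.74 SE). The groups did not overlap at any of these genes. The LNK genes encode coactivators that work with RVE8, and of these LNK3 (AT3G12320) rose by 4.47 and LNK4 (AT5G06980) by 5.46 on the log2 scale. In all, 10 of 13 tested morning clock genes (76.9%) rose and none fell, and the same count of 10 was reached whichever of the 12 polysomal and monosomal libraries was left out. Not called were RVE2 (2.47), PRR7 (0.27) and AT1G18330 (0.63, all log2 fold changes).

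Afternoon and evening genes lay at the other end. FKF1, a blue-light receptor of the afternoon that removes repressors of CONSTANS, stood at 27.2, 54.0 and 41.8 CPM in control libraries and at 0.892, 0.612 and 0.281 CPM in the mutant. That is a 65.1-fold lower level (log2 fold change -6.02 ± 0.48 SE, edgeR adjusted p = 7.02e-06). COR27, a cold-inducible clock repressor, stood at 51.6, 35.0 and 34.2 CPM against 1.34, 0.220 and 0.328 CPM (log2 fold change -5.90 ± 0.69 SE). No mutant library came near the lowest control library at either gene. PRR5 stood at 27.3, 36.8 and 27.4 CPM against 4.52, 1.2 and 0.844 CPM (log2 fold change -3.76 ± 0.60 SE), and its relative PRR3 fell by 3.29 on the log2 scale. GIGANTEA (GI), a scaffold protein that partners FKF1, stood at 122, 108 and 102 CPM against 41.1, 31.4 and 25.9 CPM (log2 fold change -1.75 ± 0.32 SE, edgeR adjusted p = 0.00203). GI was no longer called without TMM (edgeR adjusted p = 0.0729). Of 13 tested evening genes 7 fell (53.8%; 6 to 9 when a library was left out) and none rose. ELF4, a member of the evening complex chosen here after its values were seen, had counts in every control library (0.549, 1.69 and 1.44 CPM) and none in the mutant, which makes it at least 14.2-fold lower when 3 counts per library are taken as the floor.

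GRP7 encodes a glycine-rich RNA-binding protein that runs a slave oscillator under the clock and peaks in the evening. It stood at 846, 1232 and 1297 CPM in control libraries and at 63.3, 22.8 and 15 CPM in the mutant, a 33.3-fold lower level (log2 fold change -5.06 ± 0.63 SE, edgeR adjusted p = 0.000108). CCL (CCR-LIKE), another clock-controlled gene, went from 207 ± 32.3 to 22.8 ± 0.169 CPM (mean ± SD, n = 3 each).

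Zinc-finger proteins of the CONSTANS-like and B-box families, and the CDF factors that repress CONSTANS, shift with the time of day in light-grown plants. In mutant polysomes 13 of 16 tested members (81.2%) rose and 1 fell. COL2 stood at 1.2, 1.90 and 0.451 CPM against 95.5, 32.1 and 52.7 CPM, and COL1 at 1.90, 1.22 and 2.13 CPM against 106, 23.8 and 40.5 CPM. Both groups of libraries were fully apart at these genes, with log2 fold changes of 5.65 ± 0.53 (SE) for COL2 and 5.02 ± 0.63 (SE) for COL1. BBX16 rose by 5.26, BBX19 by 4.17, BBX28 by 3.41 and CDF1 (AT5G62430) by 3.03 on the log2 scale. The member that fell was COL9, a flowering repressor, from 54.4, 56.6 and 53.9 CPM to 15.4, 3.28 and 6.47 CPM. CONSTANS itself (CO) was not called (log2 fold change 1.47, edgeR adjusted p = 0.548).

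Total RNA of the same genotypes gave a different picture, library by library. Total RNA was counted in a separate table with its own normalization, so its levels are set beside the polysomal ones without a test. FKF1 in total RNA stood at 70.5, 48.0 and 58.0 CPM in control libraries and at 44.0, 43.0 and 0.293 CPM in the mutant. For LHY these were 1.44, 0.957 and 0.443 CPM in control libraries and at 0.948, 1.81 and 132 CPM in the mutant. At these genes, mutant replicate 3 alone had high LHY and hardly any FKF1 in total RNA, whereas replicates 1 and 2 were close to the control. Across the lists, of the 7 evening genes that fell in polysomes, 0, 0 and 7 were at least 2-fold below the control mean in total RNA of mutant replicates 1, 2 and 3, and of the 13 CONSTANS-like and B-box genes that rose, 0, 1 and 12 were at least 2-fold above it. The morning genes were less sharply split: of the 10 that rose in polysomes, 6, 7 and 10 were at least 2-fold above the control mean in total RNA, by medians of 1.04, 1.25 and 4.67 on the log2 scale. In monosomal RNA, with all 10 morning genes past 2-fold in each mutant library, the corresponding counts were 6, 7 and 7 evening genes and 12, 13 and 13 CONSTANS-like and B-box genes. Over all loci tested in polysomes the monosomal shares were 13.1%, 14.1% and 23.8% lower and 16.5%, 14.5% and 16.7% higher. Levels of these clock-linked genes follow the hour of the day. Since the labels give no hour of harvest, genotype and hour of harvest cannot be told apart for the polysomal clock differences.

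**Figure D2:**
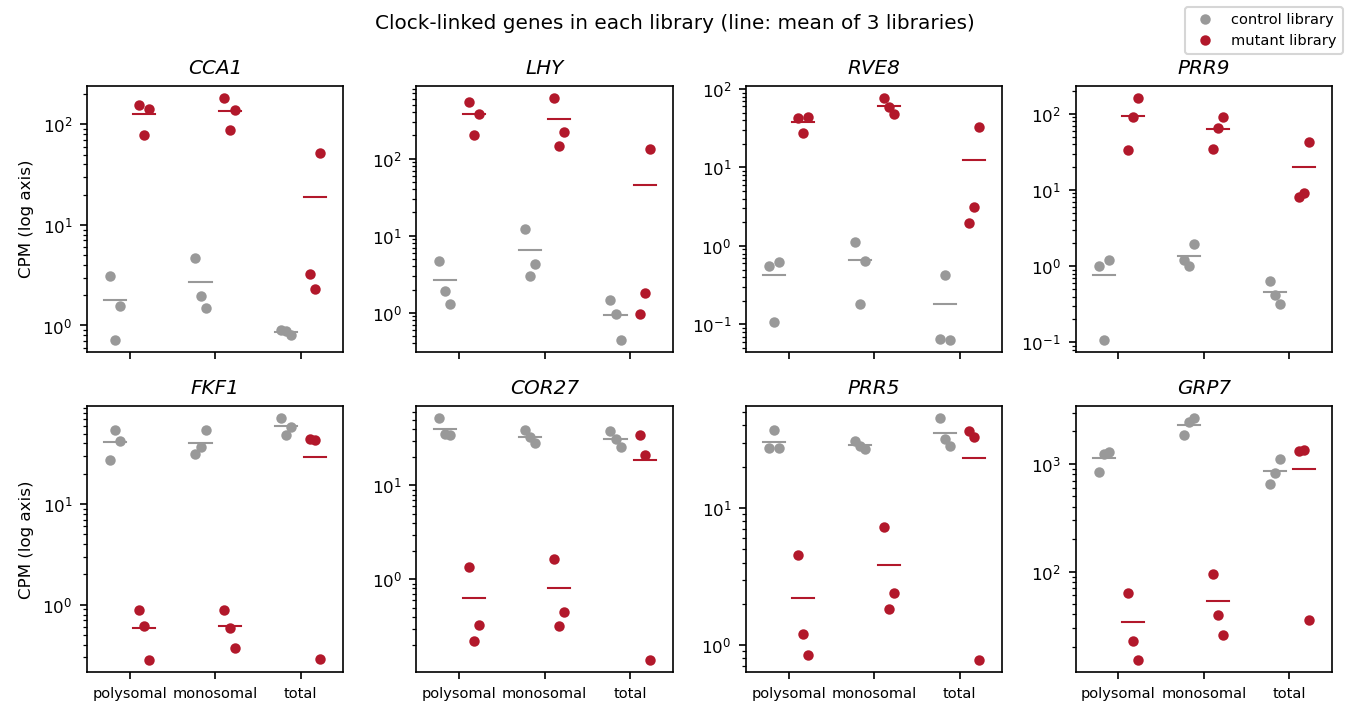
CPM on a log axis of 4 morning (upper row) and 4 evening (lower row) clock-linked genes in each polysomal, monosomal and total RNA library, with grey points for control, red points for mutant and lines for the means of 3 libraries. All 3 mutant polysomal and monosomal libraries lie apart from the control, while in total RNA FKF1, COR27, PRR5 and GRP7 are low only in mutant replicate 3 (FKF1 at 0.293 CPM beside 44.0 and 43.0 CPM).

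The promoters of the genes at either end carry short motifs that the clock literature ties to time of day. The evening element, AAAATATCT, is the site at which CCA1, LHY and the RVE proteins bind evening genes, and the G-box, CACGTG, is bound by bHLH and bZIP factors. The 250 bases before the annotated gene start are shown for 4 genes whose polysomal levels are described above, from the TAIR10.1 assembly, on the strand of the gene, 5′ to 3′, with the evening element (FKF1, GRP7 and PRR5) or the G-box (PRR9) in capitals as it reads on that strand. They are FKF1 at chr1:25508389-25508638 (plus strand), GRP7 at chr2:9266558-9266807 (minus strand), PRR5 at chr5:8358547-8358796 (minus strand) and PRR9 at chr2:19232357-19232606 (plus strand).
FKF1: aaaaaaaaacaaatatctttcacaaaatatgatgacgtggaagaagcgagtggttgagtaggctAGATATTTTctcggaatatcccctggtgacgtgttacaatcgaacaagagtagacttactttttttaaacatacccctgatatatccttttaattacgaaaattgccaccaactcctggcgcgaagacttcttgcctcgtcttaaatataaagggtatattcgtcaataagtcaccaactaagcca
GRP7: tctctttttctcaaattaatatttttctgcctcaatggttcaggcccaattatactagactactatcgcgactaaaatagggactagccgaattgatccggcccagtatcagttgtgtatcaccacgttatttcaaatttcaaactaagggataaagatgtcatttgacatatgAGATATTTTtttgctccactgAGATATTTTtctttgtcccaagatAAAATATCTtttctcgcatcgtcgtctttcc
PRR5: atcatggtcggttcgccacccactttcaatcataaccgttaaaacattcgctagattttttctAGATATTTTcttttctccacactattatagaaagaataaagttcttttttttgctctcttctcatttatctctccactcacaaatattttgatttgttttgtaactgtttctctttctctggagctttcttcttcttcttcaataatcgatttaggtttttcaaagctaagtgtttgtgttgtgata
PRR9: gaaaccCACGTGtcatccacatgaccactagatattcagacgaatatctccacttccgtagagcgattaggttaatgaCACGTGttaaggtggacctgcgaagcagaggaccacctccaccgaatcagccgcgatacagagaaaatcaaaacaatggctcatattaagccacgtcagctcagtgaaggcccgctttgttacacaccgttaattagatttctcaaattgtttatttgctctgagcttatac
GRP7 holds 3 evening elements, and FKF1 and PRR5 hold 1 each, while PRR9 holds 2 G-boxes.

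Counted on both strands over the called loci with the largest changes, the evening element was in 13 promoters of the 50 lowest loci (26%) and in 3 of the 50 highest (6%), beside 2.45% of 20655 promoters of all tested loci. The G-box was in 12 promoters of the 50 highest loci (24%) and in 4 of the 50 lowest (8%), beside 7.17% of all. Among the named genes, FKF1, GRP7, PRR5 and CCL are examples that hold an evening element, and CCA1, LHY, PRR9, FLC, RVE1 and BETA-OHASE 2 hold a G-box. FLC and COL2, which rose, hold an evening element as well. Of 13 evening clock genes 6 (46.2%) hold the evening element, and of 13 morning clock genes 7 (53.8%) hold the G-box. The shorter CCA1-binding site, AAAAATCT, was in 12% of the lowest, 4% of the highest and 6.62% of all promoters. The W-box core (TTGACC or TTGACT), to which WRKY factors bind, was in 28% of the lowest, 30% of the highest and 28.1% of all promoters, so it was about as common at both ends as elsewhere. A match describes letters in this window and is not evidence of binding.

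**Figure D3:**
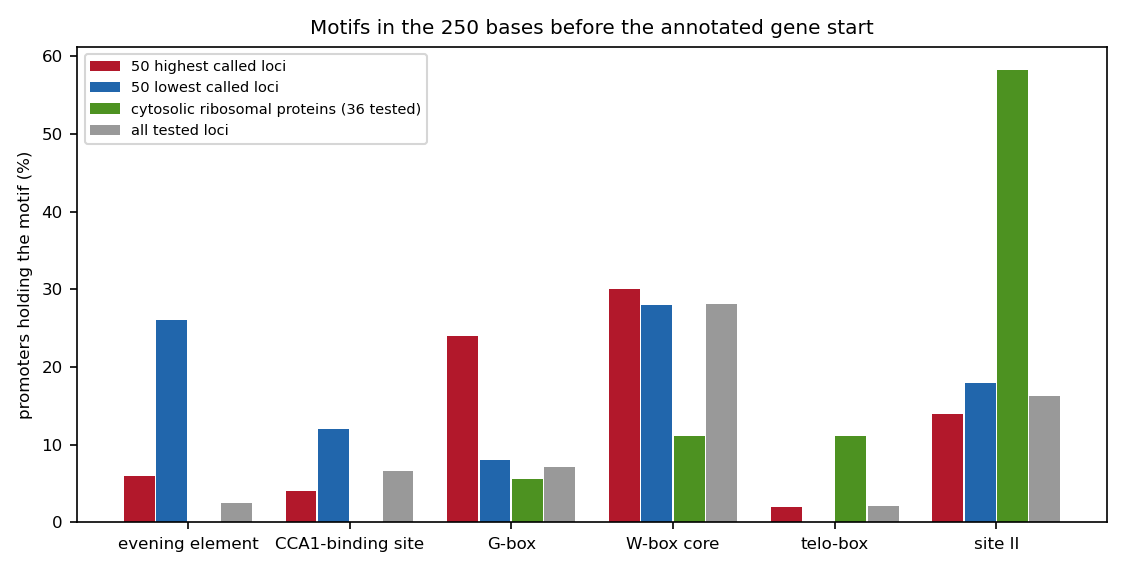
Share of promoters (y axis, %) that hold each of 6 motifs on either strand in the 250 bases before the gene start, for the 50 highest and 50 lowest called loci, 36 ribosomal protein genes and all tested loci with a promoter. The evening element stands out among the lowest loci (26%), the G-box among the highest (24%) and site II among ribosomal protein genes (58.3%).

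Of 15 tested touch, wound and cold genes 6 fell (3 without mutant replicate 3), 1 rose and 8 were not called. Over all tested loci 5.04% fell and 8.34% rose. The clock is known to gate several of the cold-inducible genes. KIN2, a small cold- and drought-induced protein, stood at 59.3, 122 and 119 CPM in control libraries and at 7.06, 8.49 and 3.05 CPM in mutant libraries (log2 fold change -4.01 ± 0.45 SE, edgeR adjusted p = 5.67e-05). COR15B, a chloroplast protein that protects membranes during freezing, stood at 90.9, 38.1 and 67.4 CPM against 7.54, 6.12 and 5.11 CPM (log2 fold change -3.38 ± 0.47 SE). The groups were apart at both genes. LTI78 fell by 2.99 and RCI2A, a small membrane protein, by 4.06 on the log2 scale. The gene that rose was TCH3, a touch-induced calmodulin-like protein, at 9.28, 8.51 and 12.8 CPM in the control and 50.3, 36 and 36.5 CPM in the mutant. In total RNA 1, 1 and 6 of the 6 fallers were at least 2-fold below the control mean in mutant replicates 1, 2 and 3. Over all loci tested in polysomes the shares there were 11.7%, 16.3% and 12%. KIN2 stood there at 72.3, 76.7 and 45.4 CPM in control libraries and at 79.7, 70.1 and 10.3 CPM in the mutant.

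Starch metabolism split by direction. GBSS1, the granule-bound synthase that makes amylose and a known target of CCA1 and LHY, stood at 5.44, 2.80 and 3.69 CPM in control libraries and at 117, 128 and 158 CPM in mutant libraries (log2 fold change 5.08 ± 0.34 SE, edgeR adjusted p = 1.21e-06). GolS2, which makes galactinol for raffinose, stood at 0.299, 0.0359 and 0.287 CPM against 17.57, 9.99 and 19 CPM (log2 fold change 6.25 ± 0.74 SE). The 5 called lower all act in starch breakdown, while other breakdown genes of the list rose or were not called. The phosphorylase PHS2 stood at 1197, 577 and 529 CPM against 109, 82.1 and 110 CPM, and the debranching enzyme ISA3 at 81.0, 56.1 and 58.3 CPM against 15.9, 15.6 and 14.7 CPM. Their log2 fold changes were -2.93 ± 0.39 (SE) and -2.08 ± 0.27 (SE). Across the list 4 of 16 tested genes rose and 5 fell, beside 8.34% and 5.04% of all tested loci. The list counts were the same whichever library was left out. Total RNA was less uniform: 0, 0 and 4 of the 5 fallers were at least 2-fold below the control mean in mutant replicates 1, 2 and 3. Their medians there were 0.23, -0.50 and -1.6 on the log2 scale. Of all loci tested in polysomes, 11.7%, 16.3% and 12% were that far below it in total RNA. The part of the hour of harvest in these starch differences was not tested. In total RNA GBSS1 was high only in mutant replicate 3 (7.90, 6.90 and 163 CPM beside 4.89, 3.72 and 3.77 CPM in the control), whereas GolS2 was high in all 3 mutant libraries (20.0, 7.51 and 39.7 CPM beside 0.193, 0.110 and 0.222 CPM).

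Some factors of NMD and of translation termination were called. UPF3, an NMD factor whose own mRNA is a target of the pathway, stood at 15.5, 16.7 and 11 CPM in control polysomes against 26.6, 32.7 and 57.7 CPM in mutant ones (log2 fold change 1.43 ± 0.35 SE, edgeR adjusted p = 0.0119). The groups did not overlap, though UPF3 was not called without control replicate 3 or without mutant replicate 3. Y14, a core protein of the exon junction complex, was called lower (log2 fold change -0.87 ± 0.27 SE, edgeR adjusted p = 0.0411) and lost that call under 9 alternatives, among them the fit without TMM. ERF1-1, a translation release factor, rose from 20.3, 20.7 and 18.3 CPM to 138, 103 and 71.2 CPM (log2 fold change 2.40 ± 0.31 SE), and was the only called gene among 19 decay and termination factors outside NMD.

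Splicing regulators, whose poison exons and introns make many of their transcripts NMD targets in plants, had many risers. Of 24 tested, 11 rose and 2 fell, beside 8.34% and 5.04% of all tested loci, with a median log2 fold change of 0.62. SCL33, an SR-related splicing factor, stood at 6.14, 12.8 and 14.6 CPM against 42.4, 71.1 and 89.3 CPM (log2 fold change 2.59 ± 0.37 SE, edgeR adjusted p = 0.000266). PTB2, a polypyrimidine tract-binding protein that controls its own splicing, stood at 12.2, 14.6 and 16.3 CPM against 55.9, 66.9 and 105 CPM (log2 fold change 2.40 ± 0.29 SE). TFIIIA, the 5S rRNA transcription factor whose splicing is set by a 5S-like exon, stood at 4.84, 5.67 and 7.71 CPM against 25.4, 63.3 and 78.2 CPM (log2 fold change 3.19 ± 0.39 SE). Every mutant library was above every control library at these 3 genes. The count of risers was 6 without control replicate 1 or 3 and without mutant replicate 2 or 3. The 2 members that fell were GRP7, described with the clock, and its relative GRP8 (AT4G39260). In total RNA 13 of the 24 rose, beside 15.3% of all loci tested there. SCL33 stood there at 11.3, 11.2 and 11.5 CPM in control libraries and at 72.2, 67.4 and 79.2 CPM in the mutant, high in each replicate.

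Genes with a conserved peptide upstream reading frame (CPuORF) had 6 of 14 tested members higher and none lower, beside 8.34% and 5.04% of all tested loci. The median log2 fold change of the list was 1.04. CPUORF47 stood at 5.09, 4.88 and 4.96 CPM in control libraries and at 64.7, 98.5 and 108 CPM in mutant libraries (log2 fold change 4.18 ± 0.30 SE, edgeR adjusted p = 1.68e-06). CIPK6 (SIP3), a kinase that calcium sensors of the CBL family activate, stood at 12.4, 17.41 and 12.2 CPM against 119, 297 and 416 CPM (log2 fold change 4.31 ± 0.44 SE). VTC2, the GDP-L-galactose phosphorylase that commits carbon to ascorbate and is held back by its upstream frame, stood at 35.8, 33.3 and 36.6 CPM against 570, 287 and 391 CPM (log2 fold change 3.56 ± 0.49 SE). The control values of these 3 genes were close together, and every mutant library was far above them. The sucrose-repressed factor bZIP2 rose by 1.68 on the log2 scale. No member was called lower in monosomal or total RNA either, where 6 and 7 rose, beside 8.07% and 15.3% of all loci. MYB59, a MYB factor whose transcripts are alternatively spliced, is outside these lists and stood at 2.89, 1.58 and 3.08 CPM against 61.3, 154 and 209 CPM (log2 fold change 5.81 ± 0.50 SE). In total RNA MYB59 was high in all 3 mutant libraries, at 56.0, 39.4 and 55.7 CPM beside 1.73, 1.05 and 0.981 CPM in the control.

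Annotation classes showed the same lean. Among 1935 tested protein-coding loci with an annotated isoform whose stop codon is followed by an exon junction over 50 nt downstream, 252 rose (13%) and 74 fell (3.82%), whereas among 17000 without such an isoform 7.55% rose and 5.71% fell. Loci with an upstream reading frame of at least 16 codons rose in 10.4% of 7438 and fell in 4.32%, beside 6.65% and 6.30% of 11497 without. A 3′ untranslated region over 350 nt went with 9.65% rising, beside 7.27% without. Loci with all 3 features rose in 16.3% of 777, and loci with none in 5.96% of 7487. The order of the junction and reading-frame classes was the same without control replicate 2 (7.88% of loci with the junction and 4.41% without it rose), without control replicate 3 (6.86% and 4.2%) and without mutant replicate 3 (7.48% and 4.38%). Risers also had longer annotated exonic sequence (median 2053.5 nt) than fallers (1532 nt) and uncalled loci (1739 nt), and the part of length in these shares was not tested.

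Loci annotated as non-coding RNA genes rose in 50 of 305 tested (16.4%) and pseudogenes in 61 of 611 (9.98%), beside 8.34% of all tested loci, with none of either kind called lower. Their median log2 fold changes were 1.29 and 1.15, beside 0.03 over all tested loci. Those tested were 305 of 561 non-coding loci and 611 of 4811 pseudogenes. A locus can pass the count filter through 1 group alone, so the filter can itself shift these medians. With 0.5 CPM added, medians against the control mean in mutant replicates 1, 2 and 3 were 0.56, 0.75 and 1.03 for non-coding loci. For pseudogenes they were -0.09, 0.62 and 0.87. Without control replicate 2, 9.91% of non-coding RNA genes and 4.31% of pseudogenes rose, beside 1054 of 21789 loci in all. Without control replicate 3 the shares were 8.36% and 3.35% beside 971 of 21862 loci, and without mutant replicate 3 they were 7.36% and 4.49% beside 1016 of 21627. Without control replicate 1 they were 10.5% and 4.73% beside 1546 of 22007. The share of pseudogenes was thus near or below that of all loci in these fits.

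**Figure D4:**
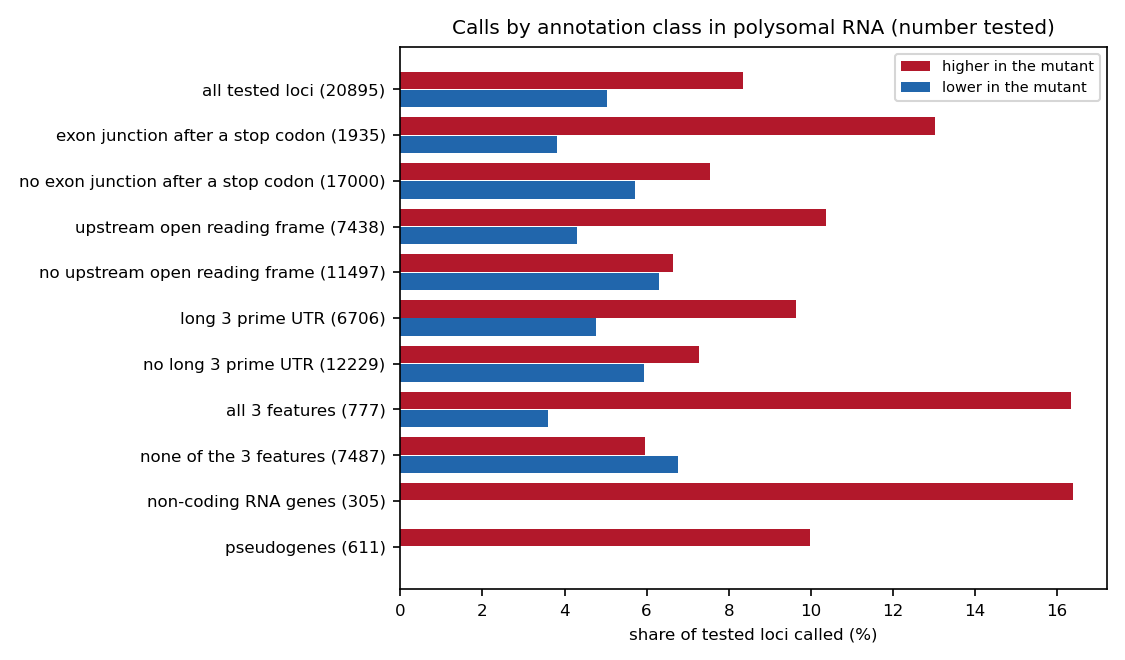
Share of tested loci (x axis, %) called higher (red) or lower (blue) in mutant polysomal RNA for annotation classes, with the number tested in brackets. Loci with all 3 NMD-linked features rose more often (16.3%) than loci with none (5.96%), and non-coding RNA genes and pseudogenes have no blue bar.

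Of 24 tested flowering regulators 7 rose and 1 fell, beside 8.34% and 5.04% of all tested loci. The median log2 fold change of the list was 0.31. FLC, the MADS-box repressor that vernalization silences, stood at 0.699, 0.0359 and 0 CPM in control libraries and at 17.2, 22.0 and 16.0 CPM in mutant libraries (log2 fold change 6.35 ± 0.81 SE, edgeR adjusted p = 0.000125). FLC was near its detection limit in the control and well above it in each mutant library. In total RNA it stood at 0.142, 0.129 and 0.206 CPM against 13.8, 20.2 and 19.9 CPM. Its relative MAF1 (FLM) rose by 1.36 on the log2 scale, and TEM2 (RAV2), which represses the florigen gene FT, by 3.30 (not called by limma-voom). MAF4 had 1 count in all control polysomal libraries together and stood at 1.34, 4.11 and 1.64 CPM in the mutant. MAF5, chosen after its values were seen, had no control count and was at least 9.03-fold higher by the floor of 3 counts per library. The florigen gene FT (log2 fold change 0.32, edgeR adjusted p = 0.939) and the integrator SOC1 (AGL20; -1.30, edgeR adjusted p = 0.057) were not called.

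Calls among immune genes were all towards higher levels. Of 27 tested NLR receptors, the intracellular sensors of pathogen effectors, 10 rose, beside 8.34% of all tested loci. Their median log2 fold change was 0.85. WRR4, a TIR-type receptor that confers white rust resistance, stood at 13.8, 11.8 and 10.5 CPM against 67.5, 70.4 and 139 CPM (log2 fold change 2.94 ± 0.37 SE, edgeR adjusted p = 0.000125). TAO1 rose by 2.97, CHS3 (DAR4) by 2.13 and RLM3 by 1.91 on the log2 scale. At 17 of the 27 receptors all mutant libraries were above all control ones, beside 21.3% of all tested loci. The count of risers was 6 without control replicate 3 or without mutant replicate 3. In total RNA 9 rose, beside 15.3% of all loci tested there. RPM1, RPP4 and SNC1, receptors well known from autoimmune mutants or resistance tests, were not called (log2 fold changes 0.26, 0.64 and 0.59) and were chosen after their values were seen.

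Genes of salicylic acid synthesis and basal defence had 11 of 31 members higher and none lower, beside 8.34% and 5.04% of all tested loci. ICS1 (EDS16), which makes the isochorismate from which salicylic acid is built, stood at 1.90, 3.41 and 4.72 CPM against 12.4, 15.9 and 17.1 CPM (log2 fold change 2.17 ± 0.47 SE, edgeR adjusted p = 0.00602). DMR6, an oxygenase that turns salicylic acid over, stood at 3.39, 0.323 and 1.89 CPM against 27.6, 29.5 and 14 CPM (log2 fold change 3.68 ± 0.59 SE). WRKY46 and WRKY33, defence transcription factors, rose by 2.94 and 2.31 on the log2 scale. The marker PR1 was not called (log2 fold change -0.56, edgeR adjusted p = 0.787). In total RNA the 11 risers were above the control mean by a median of 1.14, 4.33 and 1.6 on the log2 scale in mutant replicates 1, 2 and 3. ICS1 stood there at 8.14, 90.4 and 16.7 CPM in the mutant and DMR6 at 7.51, 93.1 and 8.48 CPM, whereas in polysomal RNA replicate 2 was within 2-fold of replicate 1 at both genes. The polysomal count was 7 without control replicate 2 or 3 and 6 without mutant replicate 2.

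Transcripts of jasmonate-responsive storage proteins were low in mutant polysomes. VSP1, a vegetative storage protein and classic jasmonate output, stood at 10.6, 257 and 247 CPM in control libraries and at 4.43, 4.75 and 0.0469 CPM in mutant libraries (log2 fold change -5.77 ± 1.36 SE, edgeR adjusted p = 0.0105). VSP2 stood at 24.4, 328 and 324 CPM against 17.8, 38.6 and 3.84 CPM (log2 fold change -3.49 ± 0.97 SE, edgeR adjusted p = 0.0252). Control replicate 1 was far below the other control libraries at both genes, and at VSP2 mutant replicate 2 exceeded it. The VSP2 call was lost without control replicate 2 or 3 and without mutant replicate 1 or 3. BAM5, a beta-amylase, and FTM1, a fatty acid desaturase, had the same low level in control replicate 1 (4.84 and 3.99 CPM, beside 67.9 and 33.6 CPM in replicate 2). CORI3, a tyrosine aminotransferase-like protein induced by coronatine, did not share it: at 52.8, 55.6 and 39.9 CPM against 8.01, 8.62 and 11.9 CPM it fell by 2.38 on the log2 scale. Of 25 tested jasmonate genes 3 fell (12%) and 1, the repressor JAZ6, rose (4%), beside 5.04% and 8.34% of all tested loci. Total RNA went the other way, with 7 of 24 tested members higher and 0 lower, beside 15.3% and 12.5% of all loci there. The median log2 fold change of the list was 0.72 in total RNA and -0.43 in polysomes. The 3 polysomal fallers had medians of -0.02, 0.17 and -1.05 against the control mean in total RNA of mutant replicates 1, 2 and 3. The JAZ6 call was absent from every fit that left out a polysomal library other than mutant replicate 1.

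Ribosomal protein mRNAs lay lower as a block. Of 36 tested genes of the cytosolic ribosome 29 (80.6%) fell and none rose, with a median log2 fold change of -1.36. RPL7B (AT2G01250) stood at 422, 388 and 402 CPM against 138, 144 and 88.9 CPM (log2 fold change -1.71 ± 0.28 SE, edgeR adjusted p = 0.000819). BBC1, which encodes a protein L13 of the large subunit, stood at 261, 138 and 191 CPM against 69.5, 55.6 and 30.7 CPM (log2 fold change -1.92 ± 0.34 SE, edgeR adjusted p = 0.00171). The groups were apart at both genes, and the mutant minimum was in replicate 3. PGY1, a protein L10a, fell by 1.84 and SAC52, a protein L10, by 1.65 on the log2 scale. The calls depended on the scaling: without TMM none of the 36 was called, while their median stayed below 0 at -0.88 with the median of all loci at 0.47. Without control replicate 3 the count that fell was 15, and without mutant replicate 3 it was 14. Paralogous copies of these genes are nearly alike, so how kallisto shares reads among copies can move the value of a given copy. In total RNA 31 of the 36 fell, beside 12.5% of all loci tested there.

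The promoters of such genes are known for site II elements (TGGGCC), bound by TCP factors, and telo-boxes (AAACCCTAA). Site II was in 21 of 36 ribosomal protein promoters (58.3%) and in 16.3% of all tested promoters, and the telo-box in 11.1% and 2.14%. The promoter of BBC1 (TAIR10.1, chr3:18168701-18168950, minus strand, 250 bases before the gene start, 5′ to 3′) is shown as an example with its 2 site II elements in capitals as they read on the gene's strand.
BBC1: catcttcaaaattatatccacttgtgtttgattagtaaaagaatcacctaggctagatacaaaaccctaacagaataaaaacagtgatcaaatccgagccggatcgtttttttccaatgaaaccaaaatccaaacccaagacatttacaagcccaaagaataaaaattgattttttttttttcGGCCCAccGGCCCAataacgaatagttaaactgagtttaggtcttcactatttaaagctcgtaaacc

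Translation factors followed in part, with 7 of 20 lower and none higher. LOS1, the elongation factor eEF2 that moves the ribosome along the mRNA, fell by 1.52 on the log2 scale. AT5G60390, an eEF1A gene that delivers aminoacyl-tRNA, fell by 1.37, the helicase EIF4A1 by 1.12 and the poly(A)-binding protein PAB4 by 1.08. None of the 7 was called without TMM, and the count was 1 without control replicate 2, 3 without mutant replicate 2 and 0 without control replicate 3 or mutant replicate 3. Nuclear photosynthesis genes had 1 of 41 lower, PSAN, and none higher in polysomes, with a median log2 fold change of -0.35. PSAN, a luminal subunit of photosystem I, stood at 905, 1039 and 1336 CPM against 437, 405 and 397 CPM (edgeR adjusted p = 0.0242), a call that was lost without control replicate 2 or 3, without mutant replicate 2 or 3 and without TMM. In total RNA 25 of the 41 fell, with a median of -1.11, beside 12.5% of all loci tested there. Whether the polysomal and the total RNA changes of these genes differ was not tested, since the tables were normalized apart.

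Dividing-cell genes were low in every mutant library. Of 21 genes of the cell cycle and of DNA replication 11 fell and none rose, with a median log2 fold change of -1.61, and at 20 of the 21 all mutant libraries were below all control ones, beside 16.6% of all tested loci. HIK, the kinesin HINKEL of the cytokinetic phragmoplast, stood at 53.1, 95.0 and 86.5 CPM against 22.5, 18.8 and 5.95 CPM (log2 fold change -2.30 ± 0.44 SE, edgeR adjusted p = 0.0028). CYCB1;2 (CYC1BAT), a mitotic cyclin, stood at 33.9, 33.3 and 33.9 CPM against 12.2, 9.11 and 3.52 CPM (log2 fold change -2.02 ± 0.40 SE). The mutant median was lowest in replicate 3 (-3.20, beside -1.07 and -1.06 in replicates 1 and 2). 3xHMG-box2, a mitotic chromatin protein, fell by 2.2 and TOPII, the topoisomerase that untangles replicated DNA, by 1.69 on the log2 scale. None of the 21 was called without TMM, where the median was -1.12. The count that fell was 5 without control replicate 2, 4 without control replicate 3 and 6 without mutant replicate 3. In total RNA 19 of the 21 fell, beside 12.5% of all loci tested there.

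Genes of copper and iron handling held calls in both directions. CSD2, the chloroplast copper/zinc superoxide dismutase that the copper-responsive microRNA miR398 targets, stood at 179, 148 and 182 CPM against 25.8, 18.0 and 10.4 CPM (log2 fold change -3.23 ± 0.36 SE, edgeR adjusted p = 5.84e-05). Its cytosolic counterpart CSD1 stood at 78.6, 84.7 and 112 CPM against 22.0, 15.3 and 6.19 CPM, and the copper chaperone CCS, which loads both, fell by 2.58 on the log2 scale. Mutant libraries were below control ones at all 3 genes. COPT1, a copper importer, rose from 4.59, 4.49 and 5.58 CPM to 14.7, 11 and 15.9 CPM. Of 11 tested genes of the list 5 fell and 1 rose, whichever library was left out, beside 5.04% and 8.34% of all tested loci in the main fit. In total RNA CSD2 was low in every mutant library (35.6, 38.5 and 23.9 CPM beside 251, 178 and 298 CPM), while CSD1 in mutant replicate 2 was at the control level (137 CPM beside 65.6, 149 and 120 CPM).

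Among iron genes, bHLH38, a transcription factor of the iron deficiency response, stood at 0.0499, 0.215 and 0.287 CPM against 9.37, 8.45 and 12.5 CPM (log2 fold change 5.72 ± 0.82 SE, edgeR adjusted p = 0.000295). Its close relatives bHLH39 and BHLH100 had at most 3 control counts in all and reached 4.95, 2.94 and 5.20 CPM (bHLH39) and 4.70, 3.84 and 6.98 CPM (BHLH100) in the mutant. The iron-storage ferritin FER3 went the other way, from 65.9, 51.2 and 49.1 CPM to 21.4, 10.9 and 7.64 CPM (log2 fold change -2.05 ± 0.36 SE). Of 12 tested iron genes 5 rose (3 without control replicate 3 or without mutant replicate 3) and 3, all ferritins, fell. Over all tested loci 8.34% rose and 5.04% fell.

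Heat shock genes had 3 of 9 tested members higher and none lower, beside 8.34% and 5.04% of all tested loci. HSP70 (AT3G12580) stood at 0.549, 0.754 and 1.48 CPM against 59.4, 24.3 and 16.4 CPM (log2 fold change 5.16 ± 0.69 SE, edgeR adjusted p = 0.000182), and HSP101, a disaggregase needed for heat tolerance, at 4.79, 5.89 and 4.59 CPM against 39.4, 41.1 and 42.5 CPM. HSP90.1 was also called (2.43), a call that did not hold when control replicate 1, control replicate 3 or mutant replicate 1 was dropped. BT2, a BTB scaffold protein that responds to sugar and nitrogen, stood apart from these groups with a drop from 51.9, 47.2 and 41.4 CPM to 2.93, 3.5 and 1.27 CPM (log2 fold change -4.17 ± 0.37 SE, edgeR adjusted p = 9.63e-06), and it was low in each mutant library of total RNA too (8.31, 15.9 and 1.67 CPM beside 48.8, 45.0 and 43.9 CPM).

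Markers of cell types had few calls, beside 13.4% of all tested loci, and such short lists were not tested against that share. None of 6 green leaf markers was called, with a median log2 fold change of -0.10, and none of 7 vascular or 6 guard and myrosin cell markers. The 5 epidermal and trichome markers had a median of -1.90 (-0.76, -1.31 and -2.65 in mutant replicates 1, 2 and 3), and of these CER1, an enzyme of wax synthesis, fell from 86.8, 155 and 143 CPM to 26.9, 39.5 and 8.20 CPM (edgeR adjusted p = 0.00632, not called without TMM). Of 12 flower and seed markers 9 were tested, the 3 seed markers being under the filter, and 2 fell, with a median of -1.79. ATA27, a tapetum gene, stood at 0.499, 7.65 and 9.80 CPM against 0.0149, 0.171 and 0.0469 CPM (not called by limma-voom), and LTP12, a lipid transfer protein of anthers, at 0.150, 3.88 and 7.42 CPM with no count in the mutant, at least 44.3-fold lower by the floor. The floral levels of control replicates 2 and 3 were above those of control replicate 1, and the part of floral or epidermal tissue in other polysomal differences was not tested.

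Many of the calls were shared with monosomal RNA. There 2647 of 20895 loci were called (12.7%), 1686 higher (8.07%) and 961 lower (4.6%), and 1171 of the 1742 polysomal risers were also risers in monosomes, which is 67.2% of the polysomal and 69.5% of the monosomal risers. Of the 1054 fallers 568 were shared (53.9% of the polysomal and 59.1% of the monosomal ones), and no locus was called in opposite directions. Monosomal calls numbered 1378 without control monosomal replicate 2 and 1541 without control monosomal replicate 3, and without TMM they were 3139 higher and 149 lower. All 15 named genes with the highest polysomal fold changes, and 13 of the 15 with the lowest, were called the same way in monosomes. Tested directly, the difference between the polysomal and the monosomal change passed at 0 loci (0%) in edgeR's quasi-likelihood test, with 493 loci (2.36%) at an unadjusted p under 0.05, at 2 loci in DESeq2 and at 0 in limma-voom. A count of 0 does not show that the changes were equal. In total RNA 5638 of 20302 loci were called (27.8%), 3107 higher (15.3%) and 2531 lower (12.5%), with 2291, 2047 and 2921 calls without control replicates 1, 2 and 3. Total RNA shared 1188 risers (68.2% of the polysomal and 38.2% of the total RNA ones) and 634 fallers (60.2% and 25%).

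By fitted values, fewer of the lowest than of the highest polysomal genes were called in total RNA. A single shifted library raises a mean further than it can lower it, so these counts do not compare both ends on equal terms. By library, mutant replicates 1, 2 and 3 of total RNA had 0, 1 and 12 of the 13 CONSTANS-like and B-box risers past 2-fold. For the 10 morning risers the counts were 6, 7 and 10, and for the 7 evening fallers 0, 0 and 7. Of the 15 highest named genes 11 were called higher in total RNA as well, with log2 fold changes of 2.55 to 6.80 over the 15. Of the 15 lowest 3 were called lower in total RNA, and their values there ran from -3.83 to 0.15 with a median of -0.68, beside a median of -3.50 in monosomes. At FKF1, COR27, GRP7, PRR5, PRR3, CCL, KIN2, COR15B and RCI2A, mutant replicates 1 and 2 of total RNA were near or above the control libraries and replicate 3 was far below them. FLC, MYB59, SCL33, CSD2, BT2 and the CPuORF host CPUORF47 were shifted in all 3 mutant libraries of total RNA.

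**Figure D5:**
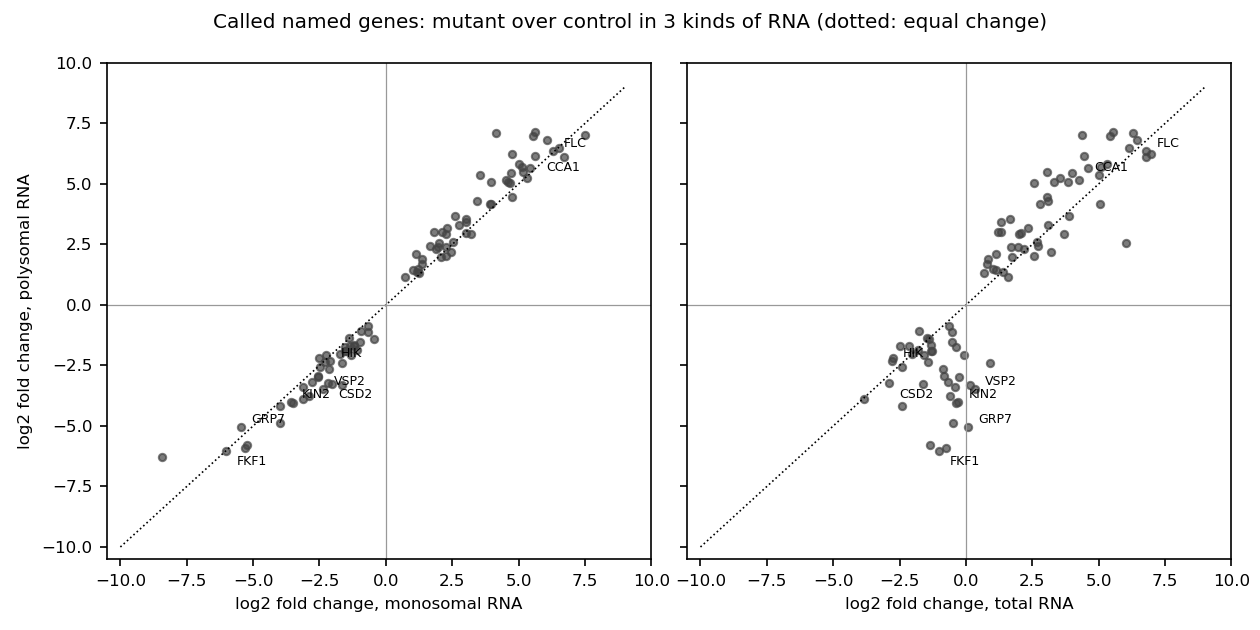
Log2 fold change of mutant over control in polysomal RNA (y axis) against monosomal RNA (left) and total RNA (right) for named genes that were called in polysomes and have counts in both groups; values are fitted, and the dotted line marks equal change. Points follow the line in monosomal RNA, while in total RNA the genes lowest in polysomes, such as FKF1 and GRP7 (-6.02 and -5.06 in polysomes), lie closer to 0.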

How the data were processed

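RNA from leaves was depleted of ribosomal RNA and made into strand-specific single-end libraries, per the labels' protocols. The submitters' processing notes name kallisto 0.43.0, limma and the TAIR10 build, and how the counts were summed to genes is not given in the sources used here. The authors deposited estimated counts per locus that need not be whole numbers, in a table of 12 monosomal and polysomal libraries and a separate table of 6 total RNA libraries. They were rounded to whole numbers and tested with edgeR 4.0.16 (R 4.3.3; quasi-likelihood test, TMM scaling, filterByExpr with a count minimum of 10, two-sided, Benjamini-Hochberg adjusted p under 0.05 over all tested loci). The 12 libraries entered a fit of 4 groups with 8 residual degrees of freedom, and total RNA had its own fit with 4. The p-values measure the spread between these libraries. The edgeR code was tested on simulated counts with 200 changed genes. It recovered 0% of them at 2-fold, 35.5% at 4-fold and 59% at 8-fold, so a gene not called may still have changed. In the data 2796 loci were called, far more than the 200 changed here, so these rates need not hold for the polysomal contrast. The smallest called changes there were 0.77 for risers and 0.73 for fallers on the log2 scale, without sign. DESeq2 1.42.0, limma-voom (limma 3.58.1), other scalings and filters, the replicate number as a block and leaving out each library were tried as alternatives. The replicate numbers do not pair the genotypes: deviations of same-numbered polysomal libraries correlated at 0.097, 0.098 and -0.107. Same-numbered monosomal and polysomal libraries correlated at 0.339, 0.060 and 0.104 in the control and at 0.232, 0.155 and 0.169 in the mutant. The main fit treats them as independent. With a block for each such pair, edgeR called 0 loci for the polysomal minus monosomal difference, with 653 at an unadjusted p under 0.05.

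Gene symbols, classes and promoters came from the TAIR10.1 annotation, which matched 33437 of 34212 loci. Promoters were cut from the supplied assembly, with overlapping matches counted. Gene lists, and the comparison itself, were chosen with earlier results of these data known, and 36 of 524 list entries were dropped. Either the annotation does not give that symbol for that locus, or the locus is not among those counted (such as BZIP11 and HSFB1). Named genes were UPF1 and PAD4, the 15 highest and 15 lowest called fold changes (with a symbol, no overlap of libraries and log2 of the mean CPM over the 6 polysomal libraries of at least 3), for each list its lowest p-values, 4 genes at most, and all floral markers; others are said to be chosen after their values were seen or are given as list members. A floor of 3 counts per library was used where a group had none. Results on some further genes and promoters are not reported here.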

Additional observations from a re-analysis of the deposited data

How the results depend on the processing

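Polysomal calls (2796) numbered 3138 with the replicate number as a block, 3016 with the polysomal libraries alone, 3791 with DESeq2, 2306 with limma-voom and 3570 without the filter on low counts; leaving out a library gave 1418 to 3152. Monosomal calls ranged from 1378 to 2887, calls of the polysomal minus monosomal difference from 0 to 0, and total RNA calls from 2047 to 6109 when a library was left out. The polysomal minus monosomal difference passed at 2 loci with DESeq2 and at 48 without the filter, and at 0 with the replicate block. Of 140 named genes 94 were called, 65 of them under every alternative run, and none of the called genes changed sign. Over 2935 pairs of a named gene and an alternative, 2784 kept direction and call, 85 lost the call and 55 gained it. The 11 changes of sign were all at genes not called: UPF1 (LBA1) at 0.0894 without TMM and 0.0115 without mutant replicate 1 (lowest -0.7132 without mutant replicate 3), GUT15 at -0.0319 (highest 0.5503) and KAT1 at -0.0627 (highest 0.4461) without control replicate 3, KAT1 at -0.308 and MYB60 at -0.0076 without mutant replicate 3, MYB60 at -0.2436 without control replicate 1 (highest 0.7697), FAMA (FMA) at 0.0322 without TMM, AMS at 0.5547 with limma-voom and 0.0350 without control replicate 2 (lowest -1.0552), and CRC at 0.0404 with the replicate block. The block changed the sign of no called gene. Without TMM the medians of the NMD factor, decay factor and endoplasmic reticulum lists turned positive (0.09, 0.32 and 0.36), as did those of the glucosinolate, vascular, and green leaf lists (0.24, 0.31 and 0.20), and the median of all loci in monosomal RNA was 0.62. The causes of these shifts were not tested. With 3 libraries per group and values of a few counts in the control, fold changes of genes such as FLC and RVE8 are imprecise.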

Other observations

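Several groups beside those in the report had few or no calls in polysomal RNA, where 13.4% of all tested loci were called. Lists this short were not tested against that share. Of 19 mRNA decay and termination factors outside NMD 1, the release factor ERF1-1, rose and none fell, and the median log2 fold change was -0.15. Of 15 endoplasmic reticulum stress genes 1 rose, BZIP60, a transcription factor of the unfolded protein response (1.14, edgeR adjusted p = 0.0426), and that call was lost whichever polysomal library was left out. NYC1, a chlorophyll b reductase, was the only called member among 10 senescence genes and fell by 1.92 (edgeR adjusted p = 0.0264); it was not called without control replicate 1, mutant replicate 2, mutant replicate 3 or TMM. No aliphatic glucosinolate gene of 12 was called, with median differences of -1.30, 0.39 and -0.55 on the log2 scale in mutant replicates 1, 2 and 3. Of 7 tested TAS and other long non-coding RNAs the phosphate-starvation transcript AT4 (AT5G03545) rose, from 0.749, 6.25 and 4.96 CPM to 17.38, 28.5 and 25.4 CPM, a call lost without control replicate 3 or mutant replicate 3. In total RNA AT4 stood at 23.58, 0.892 and 48.8 CPM in mutant libraries and at 0.645, 0.239 and 0.206 CPM in the control.

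Further genes among the 15 highest lie outside the lists. MRD1 stood at 0.0499, 0.610 and 0.164 CPM in control libraries and at 14.3, 22.5 and 24.7 CPM in mutant libraries (log2 fold change 6.13), and OMTF3 at 0.848, 0.0359 and 1.03 CPM against 16.8, 21.5 and 39.5 CPM (5.37). BETA-OHASE 2, a carotene hydroxylase of xanthophyll synthesis, stood at 1.25, 0.179 and 0.369 CPM against 8.97, 20.8 and 29.2 CPM (5.07). All 3 were apart between the genotypes. MRD1 and OMTF3 were also high in every mutant library of total RNA (8.48, 16.1 and 24.6 CPM and 41.2, 29.1 and 42.6 CPM), whereas BETA-OHASE 2 stood there at 0.465, 1.06 and 6.45 CPM. Among the lowest, Fes1B, an HSP70 nucleotide exchange factor, went from 31.1, 25.5 and 28.3 CPM to 3.73, 2.82 and 2.34 CPM (log2 fold change -3.25).

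Of 89 tested mitochondrion-encoded loci 8 rose (8.99%, beside 8.34% of all tested loci) and none fell, with a median log2 fold change of 1.04, and the count was 5 without control replicate 1 or 2, 1 without control replicate 3 and 3 without mutant replicate 3. Of 79 tested chloroplast-encoded loci 2 rose and 2 fell (2.53% each, beside 8.34% and 5.04% of all tested loci), and none was called without control replicate 1. Of 5 root markers 1, PHT1;1, had enough reads to be tested and was not called.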
